A study of Mus musculus with 20 samples.

Results

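The genes described here were 40 genes of the cell division cycle, from the cyclins and kinases of G1 to proteins of the mitotic spindle. They were picked by name. A gene was measured where the array had a probe set annotated to it alone, and the brightest such probe set was used. This gave values for 39 of the 40 genes, out of 18193 genes named on the array in the same way. Of these, 33 were bright enough to be tested, out of 11951 genes tested in all.

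Liver RNA came from BALB/c males that arrived at 6 weeks of age, with 1 Affymetrix array per mouse and 5 arrays in each of 4 groups. Untreated mice had no injection and ate the AIN93G diet for 14 days. Mice of the other 3 groups had 1 intraperitoneal injection of streptozotocin (STZ, a beta cell toxin that alkylates DNA) at 185 mg/kg and were kept where blood glucose lay between 330 and 590 mg/dL. One of these groups ate AIN93G alone, and the others ate it with 0.1% or 0.5% phloridzin, an inhibitor of sodium-glucose cotransporters. Because untreated mice were not injected, effects of STZ, of the injection and of diabetes cannot be told apart. All values are linear signals on a scale where the trimmed mean of each array is 100.

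A cell enters division through D and E cyclins, which with their kinases release E2F factors to switch on genes of DNA replication. Licensing proteins load the MCM helicase at origins, DNA is copied with the clamp Pcna, and the B cyclins with Cdk1 then start mitosis. In resting cells the DREAM complex, of which Lin54 is a DNA-binding subunit, keeps many of these genes low. In adult liver most hepatocytes rest outside the cycle, and they can re-enter it after loss of tissue. The kinase inhibitor p21, encoded by Cdkn1a and raised by p53, halts the cycle after DNA damage.

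Many of the 39 measured genes were dim. A group mean at or below 17.1, the highest of the 20 array medians, was taken as background. In 7 genes no group mean was above it, and 6 of them were too dim to be tested: Cdc6, Tyms, Plk1, Aurkb, Bub1 and Bub1b. The highest group mean among these 6 was 13.5, for Plk1 in untreated liver. The other was Knstrn, which was tested. Medians of single arrays ranged from 11.2 to 17.1. Within groups the correlation of arrays over probe sets, taken as a description, was 0.971 to 0.985. With 5 arrays per group, the typical (median) half-width of the 95% interval was 0.29 log2 units (1.22-fold), which limits what could be detected. Averaged over the 20 arrays, all 7 hepatocyte markers measured were above background, whereas 0 of 6 markers of T and NK cells were. Replicate 4 of the 0.1% phloridzin group stood apart at the bright end: its 7 hepatocyte markers summed to 173793, against 61511 to 102196 on the other 19 arrays.

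Against untreated liver, STZ liver had higher levels of Ccnd1, Tk1, Pcna and Ccnb2 and lower levels of Mcm7. The test also called Knstrn lower, although its means were at background and it was kept for testing through groups other than STZ. These were 6 of the 33 tested genes (18.2%), called at a limma adjusted p under 0.05, and 15.5% of all genes tested were called in the same comparison. The share of called cell cycle genes therefore lay near that of all genes. Of all genes, 7.71% were called higher and 7.78% lower. At an unadjusted p under 0.05 there were 8 cell cycle genes, beside 30.3% of all genes. The median difference over the 33 genes was -0.03 log2 units, against -0.04 over all genes, with 16 above and 17 below zero. The 3 genes whose STZ and untreated arrays did not overlap were Ccnd1, Pcna and Tk1, beside 13.8% of all genes. The RNA came from whole liver, so more cells of a type and more RNA per cell cannot be told apart.

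The other comparisons with untreated liver used the same 5 untreated arrays, so they are not independent of the first. With 0.1% phloridzin 4 genes were called (12.1% of those tested, beside 18.7% of all genes): Ccnd1, Pcna and Tk1 rose and Mcm7 fell. Of all genes, 8.71% rose and 9.97% fell. Without the bright replicate 4 of this group, the count was 3. Over the fits with 1 array left out, between 1594 and 2659 of all genes were called, against 2233 with every array. With 0.5% phloridzin 7 genes were called (21.2%, beside 14.4%). All of them rose: Ccnd1, Ccne1, Lin54, Pcna, Tk1, Ccnb2 and Cdk1. Of all genes, 7.32% rose and 7.03% fell. The unadjusted counts were 10 (beside 32.8%) at 0.1% and 11 (beside 29.1%) at 0.5%. Arrays did not overlap with the untreated ones in 5 genes at 0.1% (14.1% of all genes) and in 6 genes at 0.5% (12% of all genes). A test of any difference among the 4 groups (moderated F test) called 8 genes, beside 14.8% of all genes. Ccnd1, Ccne1, Lin54, Mcm7, Pcna, Tk1, Ccnb2 and Knstrn passed it, and Cdk1 did not (adjusted p = 0.0571). Without untreated replicate 1, 4 genes were called with 0.5% phloridzin and 5 by the F test. Calls over all genes also fell there, from 1715 to 1134 with 0.5% phloridzin and from 1766 to 1100 by the F test.

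**Figure D1:**
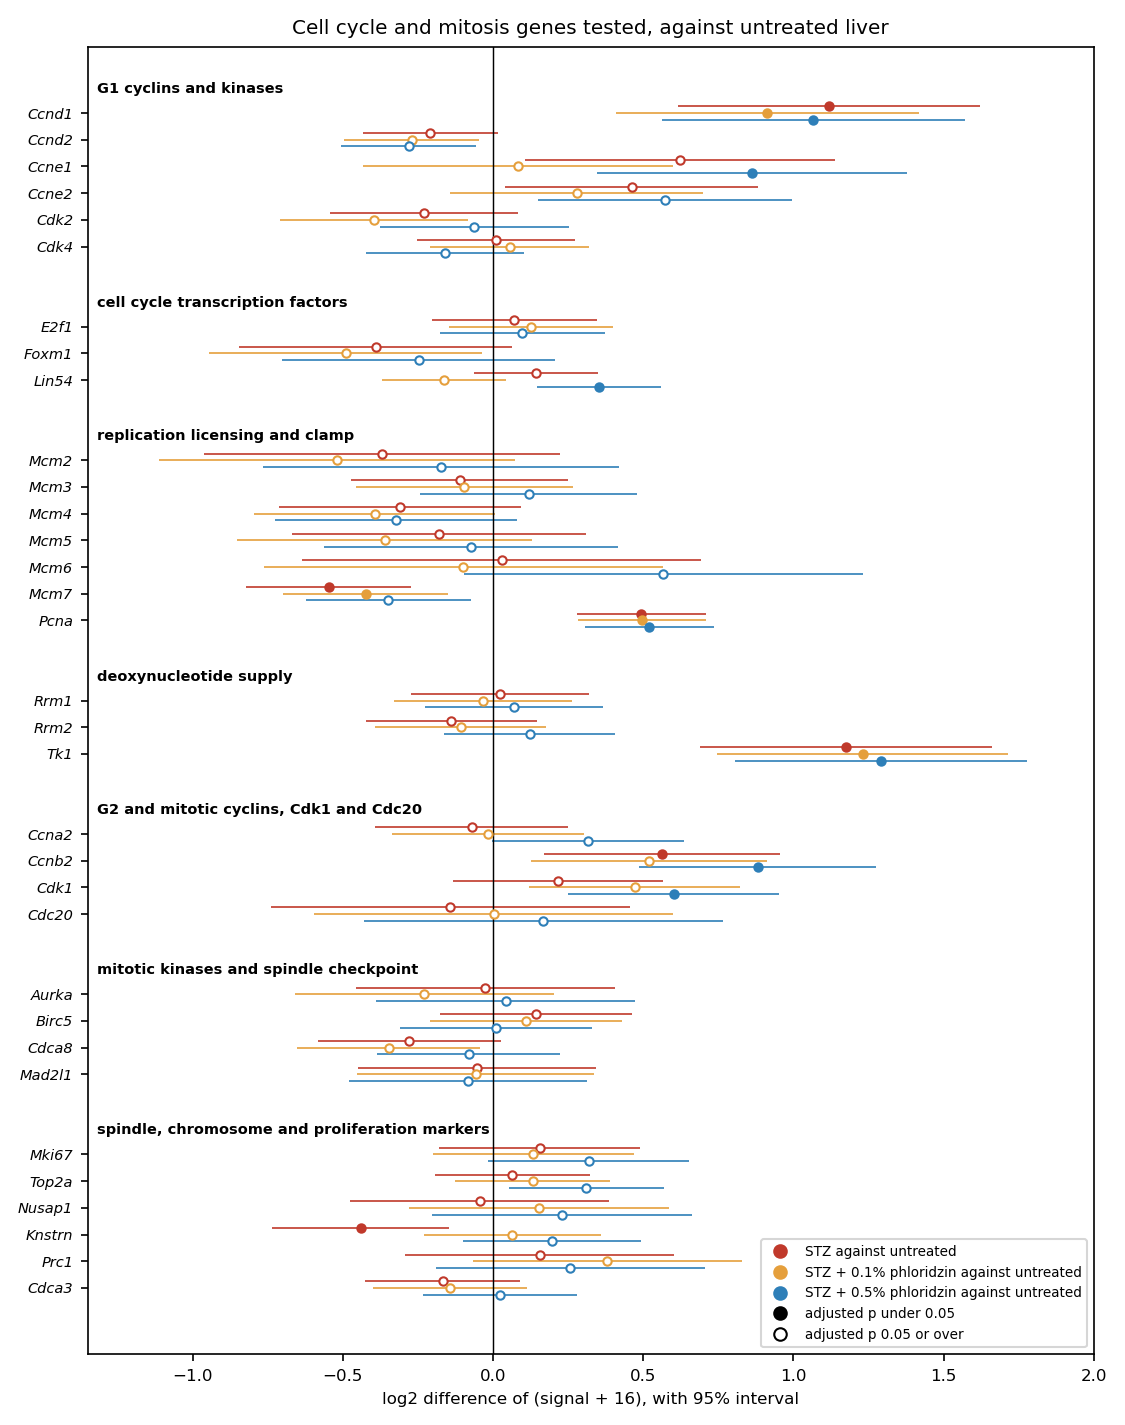
Log2 difference of (signal + 16) from untreated liver for the 33 tested genes, ordered by role, with the 95% interval of the limma fit (5 arrays per group). Filled points have an adjusted p under 0.05. Ccnd1, Pcna and Tk1 are filled and above zero in all 3 comparisons, while most mitotic genes lie near zero with open points.

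Among the G1 genes, Ccnd1, which encodes cyclin D1 and couples growth signals to the cycle, was higher in all 3 injected groups. Its signals in the 5 untreated arrays were 125, 159, 142, 147 and 129.6, and in the STZ arrays 571, 346, 277, 384 and 163. Every STZ array lay above every untreated one, and the lowest of them only just. The signals were 313, 403, 229, 251 and 226 with 0.1% phloridzin and 282, 391, 285, 445 and 204 with 0.5%. No array of these groups reached down to the untreated range either. Ccnd1 differed from untreated liver by 1.12 ± 0.24 log2 units (SE) in STZ liver (limma adjusted p = 0.00411), 2.17-fold on the scale of signal plus 16. The difference was 0.91 ± 0.24 with 0.1% (adjusted p = 0.0123) and 1.07 ± 0.24 with 0.5% phloridzin (adjusted p = 0.00613). In a fit of all probe sets rather than 1 per gene, its 2 other probe sets had differences above zero in the same 3 comparisons. One of them, above background in all groups, differed by 0.86 log2 units in STZ liver and was not called there (adjusted p = 0.0623).

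The E cyclins, which bind Cdk2 at the entry to S phase, were dimmer and more scattered. Ccne1 read 15.1, 38.3, 8.54, 24.5 and 22.2 in untreated and 80.7, 31.5, 53.5, 22.3 and 29.3 in STZ liver. These groups overlapped, and 1 STZ array stood above the rest. With 0.1% phloridzin the signals were 11.5, 13.9, 24.4, 32.7 and 37.03, and with 0.5% they were 70.1, 46.4, 48.1, 33.9 and 58.4. The 0.5% arrays were mostly above the untreated ones, and the 0.1% arrays lay in the untreated range. Ccne1 rose by 0.86 ± 0.25 log2 units with 0.5% phloridzin (limma adjusted p = 0.025), and its difference was 0.62 ± 0.25 in STZ liver (adjusted p = 0.0943) and 0.08 ± 0.25 with 0.1% (adjusted p = 0.853). The call was lost without untreated replicate 1 (adjusted p = 0.0616) or 3 (0.0732) and without replicate 1 (0.0768) or 5 (0.0630) of the 0.5% group. A second probe set of Ccne1 differed by 0.76 log2 units in this comparison (adjusted p = 0.0317).

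Ccne2, the other E cyclin, was not called in any test and is given here because its F test p was the smallest of the uncalled genes. Its signals were 13.96, 15.4, 17.4, 8.90 and 20.6 in untreated and 20.9, 40.2, 39.6, 14.3 and 24.6 in STZ liver, 12.5, 20.4, 32.6, 14.3 and 33.1 with 0.1% phloridzin and 28.9, 21.4, 41.9, 18.01 and 46.98 with 0.5%. All groups overlapped, and the untreated mean of 15.3 was at background. The differences from untreated liver were 0.46 ± 0.20, 0.28 ± 0.20 and 0.57 ± 0.20 log2 units (limma adjusted p = 0.129, 0.363 and 0.0627).

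The remaining G1 genes did not pass the test on the probe sets used. Ccnd2, a second D cyclin, had means of 94.2 ± 14.6 (SD, n = 5) in untreated and 78.9 ± 7.01 in STZ liver, with 75.1 ± 9.57 and 74.6 ± 11.2 at 0.1% and 0.5% phloridzin. On this probe set its differences from untreated liver lay between -0.28 and -0.21 log2 units, opposite in sign to those of Ccnd1. Its other probe sets above background were not called. They differed by 0.08, -0.05 and 0.10 log2 units with 0.1% phloridzin, and lay below zero in STZ liver and with 0.5%. Cdk4, the partner of the D cyclins, differed by 0.01 log2 units in STZ liver, with a 95% interval of -0.25 to 0.27. A second, dimmer Cdk4 probe set, above background in all groups, disagreed. It was higher than in untreated liver by 0.55 log2 units with STZ alone (limma adjusted p = 0.00776), 0.65 with 0.1% (adjusted p = 0.00231) and 0.49 with 0.5% phloridzin (adjusted p = 0.0184). Cdk2, the partner of the E cyclins, had its lowest mean with 0.1% phloridzin (77.1 ± 7.96, against 107 ± 17.1 in untreated liver). These Cdk2 arrays did not overlap, and the difference of -0.40 ± 0.15 log2 units had a limma adjusted p of 0.0705.

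**Figure D2:**
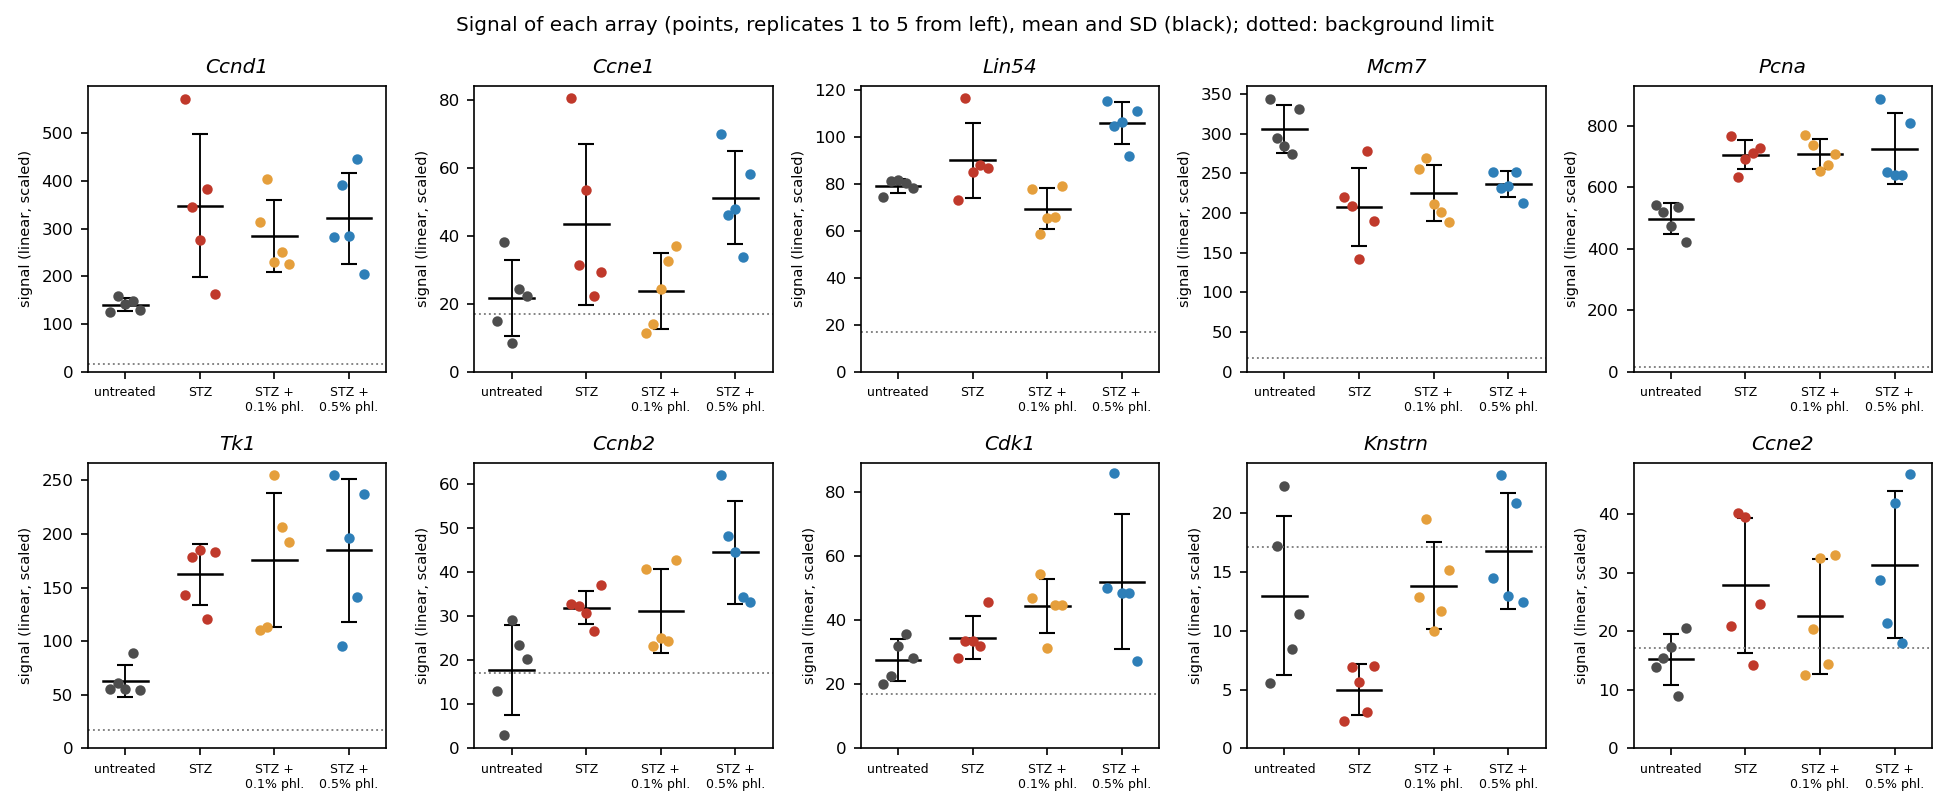
Linear signal of each array (points) for the 10 genes described array by array, in untreated, STZ, STZ + 0.1% phloridzin (phl.) and STZ + 0.5% phloridzin liver, with the group mean and SD (n = 5). The dotted line is the background limit of 17.1; the 3 injected groups lie above the untreated one in Ccnd1, Pcna and Tk1, and Knstrn stays near or below the line.

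Of the transcription factors, Lin54, a DNA-binding subunit of the DREAM and MuvB complexes, was highest with 0.5% phloridzin. Untreated arrays read 74.5, 81.2, 81.7, 80.3 and 78.1, and STZ arrays read 73.2, 117, 84.9, 88.2 and 86.7. With 0.1% phloridzin the signals were 77.6, 58.5, 65.5, 65.9 and 79.00, and with 0.5% they were 115, 104, 106, 91.7 and 111. The 0.5% arrays overlapped neither the untreated nor the 0.1% arrays, and they overlapped the STZ arrays through 1 high STZ value. Lin54 rose by 0.35 ± 0.10 log2 units with 0.5% phloridzin against untreated liver (limma adjusted p = 0.0226). It differed by 0.14 ± 0.10 in STZ liver (adjusted p = 0.353) and by -0.16 ± 0.10 with 0.1% (adjusted p = 0.269). The call was lost without untreated replicate 1 (adjusted p = 0.0560) or replicates 1 (0.0658) or 5 (0.0571) of the 0.5% group. It was also lost when its probe sets were averaged (0.16 log2 units, adjusted p = 0.24), and the second of these was at background in all groups.

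E2f1, the activator of replication genes, stayed near background in all groups, with means from 15.3 to 18.3. Foxm1, the activator of G2 and mitotic genes, had means of 21.2 ± 7.54 in untreated and 12.9 ± 8.03 in STZ liver, and 10.7 ± 6.75 and 15.9 ± 9.30 at 0.1% and 0.5% phloridzin. Its untreated mean alone was above background, and its differences of -0.39 ± 0.22, -0.49 ± 0.22 and -0.25 ± 0.22 log2 units did not pass the test (limma adjusted p = 0.236, 0.121 and 0.488).

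In the replication group, Pcna and Mcm7 moved in opposite directions. Pcna, the sliding clamp that also serves DNA repair, read 542, 518, 473, 535 and 423 in untreated and 765, 635, 691, 713 and 728 in STZ liver. It read 771, 736, 651, 671 and 708 with 0.1% and 886, 651, 641, 638 and 810.1 with 0.5% phloridzin. Every injected array lay above every untreated one. Pcna rose by 0.49 ± 0.10 log2 units in STZ liver (limma adjusted p = 0.00311, 1.41-fold). With 0.1% phloridzin it rose by 0.50 ± 0.10 (adjusted p = 0.00256), and with 0.5% by 0.52 ± 0.10 (adjusted p = 0.00251).

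Mcm7, a subunit of the replicative helicase, read 344, 295, 284, 275 and 331 in untreated and 221, 209, 143, 278 and 189.6 in STZ liver. A single STZ array entered the untreated range. The signals were 255, 269, 211, 201 and 189 with 0.1% phloridzin and 251, 232, 234, 252 and 212 with 0.5%, and all 10 of these arrays lay below the untreated ones. Mcm7 fell by 0.55 ± 0.13 log2 units in STZ liver (limma adjusted p = 0.00813, 1.46-fold lower). With 0.1% phloridzin it fell by 0.42 ± 0.13 (adjusted p = 0.0289). With 0.5% the difference was -0.35 ± 0.13 (adjusted p = 0.0795). The call at 0.1% was lost under median centring (adjusted p = 0.0854) and without untreated replicate 1 (0.0742) or 5 (0.0634) or replicate 3 (0.0609), 4 (0.0693) or 5 (0.0838) of the 0.1% group. All 4 probe sets of Mcm7 were lower in the STZ group, but 1 of them was not called there (-0.34 log2 units, adjusted p = 0.0684). With 0.1% phloridzin 2 of them were not called (adjusted p = 0.0731 and 0.0961). The one used is of a type (suffix s_at) whose probes can match more than 1 transcript.

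The other 5 helicase subunits were not called in any comparison on the probe sets used. In STZ liver the differences were -0.37 log2 units for Mcm2, -0.11 for Mcm3, -0.31 for Mcm4, -0.18 for Mcm5 and 0.03 for Mcm6. The second Mcm4 probe set, with an untreated mean of 55.04, had the same sign as the one used but was called. It differed from untreated liver by -0.76 log2 units in STZ liver (limma adjusted p = 0.00286), -0.97 with 0.1% (adjusted p = 3.46e-04) and -0.63 with 0.5% phloridzin (adjusted p = 0.0113). With 0.1% and 0.5% the one used differed by -0.39 and -0.32. Over the 6 subunits the mean log2 level per array lay between 6.16 and 6.61 in untreated, 5.66 and 6.44 in STZ, 5.68 and 6.31 in 0.1% and 5.80 and 6.62 in 0.5% liver, so all groups overlapped. Mcm6 had the widest spread, with a mean of 46.9 ± 34.5 (SD) with 0.5% phloridzin against 24.3 ± 16.3 in untreated liver. Cdc6, which loads the helicase, was at background in all 4 groups (means from 1.62 to 4.06).

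Tk1, the thymidine kinase that salvages thymidine for DNA synthesis, had the largest differences of the tested cell cycle genes in all 3 comparisons with untreated liver. It read 55.7, 61.1, 54.99, 89.2 and 54.1 in untreated liver, where 1 array stood above the other 4. The STZ arrays read 143, 179, 185, 121 and 183. Those fed phloridzin read 110.3, 114, 255, 207 and 193 (0.1%) and 255, 95.3, 196, 141 and 238 (0.5%). All 15 injected arrays lay above all untreated ones, and the phloridzin groups were more scattered than the STZ group. Tk1 rose by 1.18 ± 0.23 log2 units in STZ liver (2.26-fold, limma adjusted p = 0.00207), 1.23 ± 0.23 with 0.1% (adjusted p = 0.00136) and 1.29 ± 0.23 with 0.5% phloridzin (adjusted p = 0.00127).

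The other enzymes of deoxynucleotide supply were not called in any comparison. Rrm1 and Rrm2, the large and small subunits of ribonucleotide reductase, differed by 0.02 and -0.14 log2 units in STZ liver, with 95% intervals of -0.27 to 0.32 and -0.42 to 0.15. Neither interval reached the value of Tk1. Tyms, which makes thymidylate from deoxyuridylate, was at background in all 4 groups.

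Of the G2 and mitotic cyclins, Ccnb2, a B cyclin partner of Cdk1, was dim in untreated liver and higher in injected groups. It read 12.9, 3.03, 29.2, 23.6 and 20.3 in untreated and 32.8, 32.3, 30.7, 26.7 and 37.1 in STZ liver. The untreated arrays were widely scattered, and the highest overlapped the lowest of STZ. With 0.1% phloridzin the signals were 40.7, 23.3, 25.02, 24.3 and 42.8, and with 0.5% they were 62.04, 48.2, 44.6, 34.5 and 33.3. All 0.5% arrays lay above all untreated ones. Ccnb2 rose by 0.88 ± 0.19 log2 units with 0.5% phloridzin (limma adjusted p = 0.00429, 1.84-fold). In STZ liver it rose by 0.56 ± 0.19 (adjusted p = 0.0485), and with 0.1% the difference was 0.52 ± 0.19 (adjusted p = 0.0589).

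The STZ call of Ccnb2 was close to the threshold and was lost in 18 of 30 other settings. Leaving out untreated replicate 1, 2 or 5, any 1 STZ array, or replicate 2, 3 or 4 of either phloridzin group gave adjusted p between 0.0501 and 0.138. Without untreated replicate 2, the array with the signal of 3.03, the difference was 0.37 log2 units.

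Cdk1, the kinase that drives mitosis, read 20.04, 22.5, 31.9, 35.7 and 28.2 in untreated and 28.2, 33.4, 33.5, 32.1 and 45.8 in STZ liver. It read 47.1, 54.5, 31.3, 44.8 and 44.9 with 0.1% and 50.2, 86.03, 48.5, 48.6 and 27.2 with 0.5% phloridzin. All groups overlapped, and 1 array of the 0.5% group was the highest and another near the untreated mean. Cdk1 rose with 0.5% phloridzin by 0.60 ± 0.17 log2 units against untreated liver (limma adjusted p = 0.0219). Its difference was 0.47 ± 0.17 with 0.1% (adjusted p = 0.0555) and 0.22 ± 0.17 in STZ liver (adjusted p = 0.412). The difference at 0.1% was called in 5 of 11 other settings and without 1 array in 4 of 20 cases, with adjusted p down to 0.0218. The call was lost without untreated replicate 1 (adjusted p = 0.0622) or 2 (0.0538) and when only the compared groups were fitted (0.0536). Without its highest array it was 0.44 log2 units (adjusted p = 0.0416).

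Ccna2, the cyclin of S and G2 phase, had means of 24.4 ± 4.19 in untreated, 22.4 ± 3.31 in STZ, 24.8 ± 9.72 in 0.1% and 34.9 ± 9.63 in 0.5% liver, and was not called in any comparison on the probe set used. Its other probe set, above background in all groups, was higher with 0.5% phloridzin than in untreated liver by 0.43 log2 units (limma adjusted p = 0.0412). Cdc20, which activates the anaphase-promoting complex, had 95% intervals wider than 1 log2 unit, such as -0.74 to 0.46 in STZ liver. For Ccnb1, the other B cyclin, the array has no probe set annotated to it alone in the table used, and it was not analysed here.

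Genes of the mitotic kinases, the spindle checkpoint and the spindle were mostly at or near background. Plk1, Aurkb, Bub1 and Bub1b, kinases and checkpoint proteins of mitosis, had no group mean above it. The other 4 genes of this role, Aurka, Birc5, Cdca8 and Mad2l1, were tested and were not called in any comparison. In STZ liver these 4 differed by -0.28 (Cdca8) to 0.14 (Birc5) log2 units. Mad2l1, a checkpoint protein, had group means from 42.1 to 44.7.

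The proliferation marker Mki67 had means of 16.2 ± 6.04 in untreated, 19.6 ± 5.95 in STZ, 19.4 ± 7.36 in 0.1% and 23.8 ± 5.00 in 0.5% liver. Top2a, the topoisomerase that untangles chromosomes, went from 14.9 ± 3.16 to 22.5 ± 5.86 in the means of the same first and last groups. Neither passed the test: with 0.5% phloridzin Mki67 differed from untreated liver by 0.32 ± 0.16 (limma adjusted p = 0.193) and Top2a by 0.31 ± 0.12 log2 units (adjusted p = 0.0984). Nusap1, Prc1 and Cdca3, which act at the spindle and at mitotic entry, were not called in any comparison.

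Knstrn, a kinetochore and spindle protein, was the exception in this group by the test, but no group mean was above background. It read 5.54, 17.3, 22.3, 8.48 and 11.4 in untreated and 2.36, 6.92, 5.63, 3.06 and 7.02 in STZ liver. The STZ arrays were the lowest, and 1 untreated array lay among them. It read 12.9, 19.5, 10.01, 11.7 and 15.2 with 0.1% and 14.5, 23.3, 12.9, 20.9 and 12.4 with 0.5% phloridzin. Both phloridzin groups lay wholly above the STZ arrays. Knstrn was called lower in STZ than in untreated liver (limma adjusted p = 0.0391). No size is given since both means were at background. The call was lost in 12 of 29 other settings, among them quantile normalization (adjusted p = 0.0509), median centring (0.0812) and leaving out untreated replicate 2, 3 or 5 or STZ replicate 1, 3, 4 or 5 (0.0517 to 0.120). Its other 4 probe sets were too dim to test.

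Phloridzin was also compared with STZ alone, and 0 of the 33 genes were called with either dose, as 0% of all genes were. At an unadjusted p under 0.05, limma gave 3 genes with 0.1% (Ccne1, Lin54 and Knstrn), beside 5.42% of all genes, and 4 with 0.5% (Lin54, Ccna2, Cdk1 and Knstrn), beside 4.93%. Between the doses 0 genes were called, as 0% of all genes were, and 5 had an unadjusted p under 0.05 (Ccne1, Cdk2, Lin54, Mcm6 and Ccna2), beside 6.72%. The arrays of 1 gene did not overlap in each of these 3 comparisons, beside 0.669%, 0.845% and 0.837% of all genes. That gene was Lin54 between the doses and Knstrn against STZ at both doses. Knstrn was at background and was kept for testing through groups other than STZ.

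Lin54 had the smallest unadjusted p of these 33 genes between the doses. It differed by 0.52 ± 0.10 log2 units (0.5% minus 0.1%), and the limma adjusted p was 0.5. Against STZ its differences had opposite signs, -0.31 ± 0.10 with 0.1% (adjusted p = 0.9) and 0.21 ± 0.10 with 0.5% (adjusted p = 0.988). Ccnd1, Pcna, Tk1 and Mcm7, called in STZ liver, had intervals that held zero here, whereas Knstrn, at background, had the unadjusted p under 0.05 given above. With 0.5% phloridzin against STZ the 95% interval was -0.56 to 0.45 log2 units for Ccnd1, -0.19 to 0.24 for Pcna and -0.37 to 0.60 for Tk1. For Mcm7 it was -0.08 to 0.47.

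With 0.5% phloridzin 27 of the 33 genes had a difference from STZ above zero, with a median of 0.17 log2 units, against a median of 0.02 over all genes, of which 55.1% were above zero. With 0.1% phloridzin 15 were above zero and the median was -0.02. Lists of other cycle genes, described below, were mixed with 0.5% phloridzin against STZ. Other replication genes had 13 differences above and 18 below zero (median -0.03 log2 units). Other cyclins, kinases and DREAM or E2F factors had 13 above and 10 below (median 0.05), and other mitosis genes 18 above and 6 below (median 0.10). By role the largest median with 0.5% was that of Ccna2, Ccnb2, Cdk1 and Cdc20 (0.35 log2 units, all 4 above zero). The 6 spindle and proliferation markers were also all above zero (median 0.22). The arrays behind this were uneven. Replicate 2 of the 0.5% group held the highest of the 20 levels for 8 of 33 genes, all 8 among the 14 mitotic ones, and replicate 1 for 7. Replicate 2 also had the highest median signal of all arrays, 17.1. Without replicate 2, 24 of 33 genes were above zero and the median was 0.12. Without replicate 1 there were 23 and the median was again 0.12, and without STZ replicate 4 there were 28 with a median of 0.10. Median centring moved all genes alike, to a median of 0.11 over the 33 genes and -0.04 over all genes, with 24 of 33 and 38.7% above zero.

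**Figure D3:**
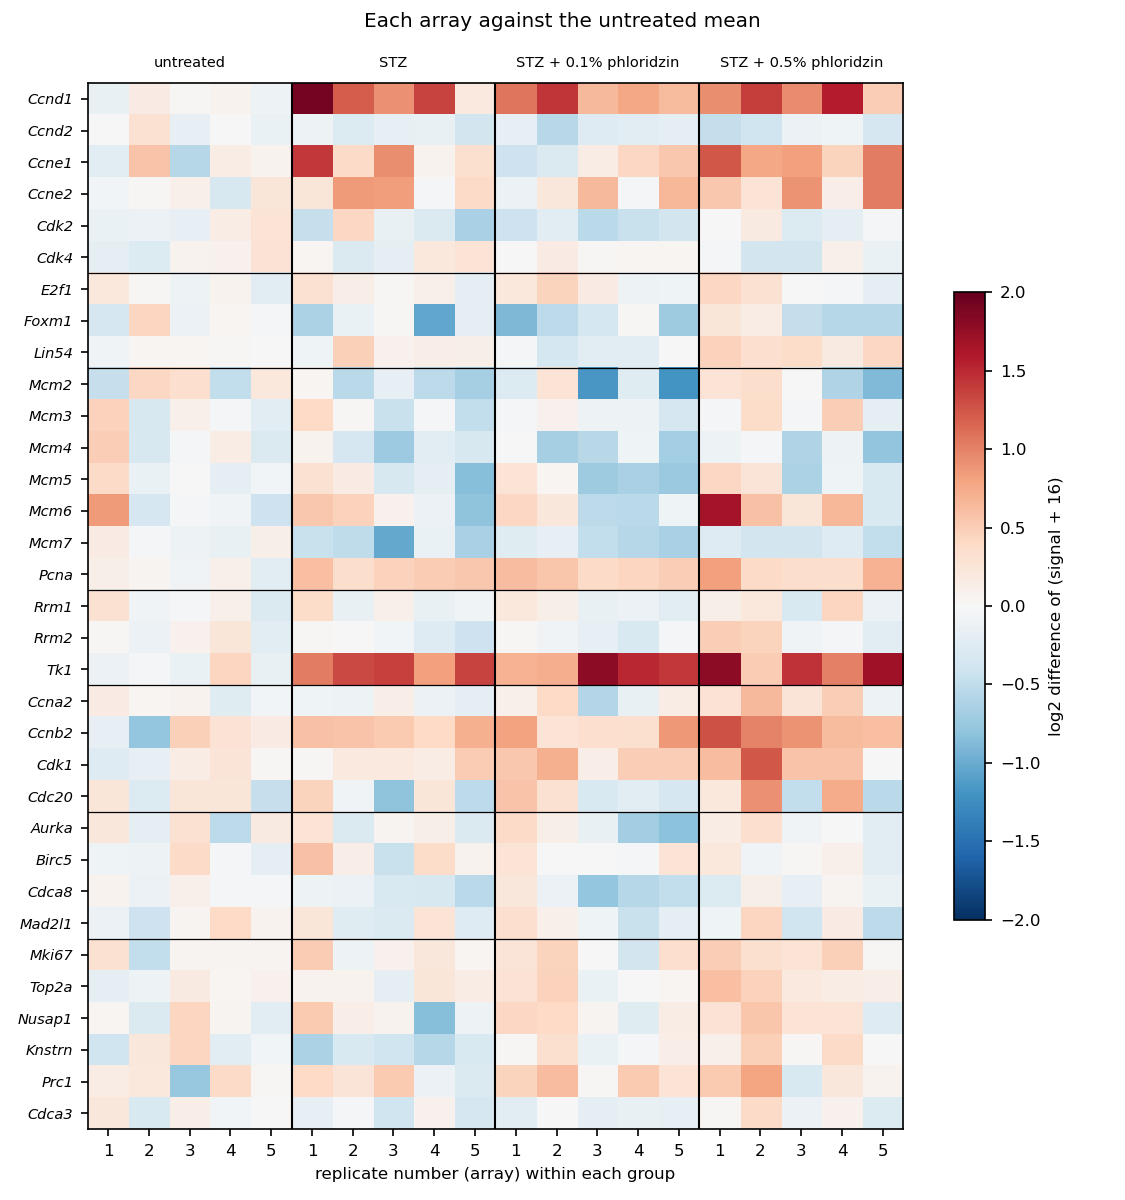
Log2 difference of each of the 20 arrays from the untreated mean for the 33 tested genes (rows, by role), on a colour scale from -2 to 2 log2 units of (signal + 16). The Ccnd1, Pcna and Tk1 rows are red in all injected arrays, Mcm7 is blue in them, and within the 0.5% phloridzin group replicate 2 is red in most mitotic rows.

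The region around the start of each gene was searched for motifs of factors known to act on cell cycle genes. Genes picked by name as cell cycle genes can be expected to hold them more often. The shares below are thus no independent check and do not bear on the levels in these arrays. The RefSeq table (GRCm38.p6) held windows of 300 bases, 250 before and 50 after the start, for 33 of the 40 genes. These were searched on both strands for the cell cycle homology region (CHR, TTTGAA or TTCGAA, bound by Lin54), for the CCAAT box (CCAAT, bound by NF-Y) and for an E2F site (TTTCGCGC, TTTGGCGC, TTTCCCGC or TTTGCCGC). The sequences of 5 genes called in these data are shown, from 180 bases before to 25 after the start, read along the gene's strand, with these motifs in capitals (a motif of the other strand is shown by its complement, such as ATTGG for the CCAAT box). They lie at chr9:70421530-70421734 for Ccnb2, chr10:69352888-69353092 for Cdk1, chr5:138171859-138172063 for Mcm7, chr2:132253156-132253360 for Pcna and chr11:117825990-117826194 for Tk1, all on the minus strand. Mcm7 has a pair of windows in the table, of which the one with more matches is shown.
Ccnb2: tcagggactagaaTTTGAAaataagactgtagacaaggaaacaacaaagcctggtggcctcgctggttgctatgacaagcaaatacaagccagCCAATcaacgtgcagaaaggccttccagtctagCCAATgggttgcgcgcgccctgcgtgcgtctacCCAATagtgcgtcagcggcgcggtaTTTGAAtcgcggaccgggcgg
Cdk1: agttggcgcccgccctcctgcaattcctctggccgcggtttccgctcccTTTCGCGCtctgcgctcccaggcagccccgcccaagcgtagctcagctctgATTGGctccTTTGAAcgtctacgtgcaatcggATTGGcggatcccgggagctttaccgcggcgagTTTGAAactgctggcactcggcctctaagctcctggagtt
Mcm7: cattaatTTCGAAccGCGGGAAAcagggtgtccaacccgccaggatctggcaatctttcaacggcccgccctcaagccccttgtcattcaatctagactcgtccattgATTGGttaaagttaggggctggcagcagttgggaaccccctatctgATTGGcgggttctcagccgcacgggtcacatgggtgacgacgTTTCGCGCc
Pcna: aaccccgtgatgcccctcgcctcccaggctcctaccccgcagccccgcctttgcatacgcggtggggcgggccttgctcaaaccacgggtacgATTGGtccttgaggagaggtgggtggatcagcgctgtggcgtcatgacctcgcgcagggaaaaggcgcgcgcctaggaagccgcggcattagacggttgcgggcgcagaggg
Tk1: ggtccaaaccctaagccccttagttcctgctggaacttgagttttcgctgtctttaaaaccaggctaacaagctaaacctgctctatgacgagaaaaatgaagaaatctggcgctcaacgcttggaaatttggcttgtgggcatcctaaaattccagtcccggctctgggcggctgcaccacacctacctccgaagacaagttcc

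Ccnb2 has CCAAT boxes starting 87, 54 and 21 bases before the start and CHR letters 167 before and 5 after it. Cdk1 has CHR letters 71 and 15 bases before the start and an E2F site 131 before it. Mcm7 has E2F sites 165 bases before and 17 after the start, the latter sharing 1 base with a CCAAT box that runs past the shown stretch. Pcna has a CCAAT box 87 bases before the start, and Tk1 has none of the 3 motifs. Over the 33 genes, CHR letters stood in 15 windows (45.5%), the CCAAT box in 23 (69.7%) and the E2F site in 7 (21.2%). Over all 27025 genes of the table the shares were 21.7%, 41.1% and 2.6%. By role, the E2F site stood in 5 of 7 licensing and clamp genes, and CHR letters in 3 of 4 G2 and mitotic cyclin genes, 5 of 7 mitotic kinase and checkpoint genes and 4 of 6 spindle and marker genes. A match is a run of letters and does not show that a factor binds there.

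**Figure D4:**
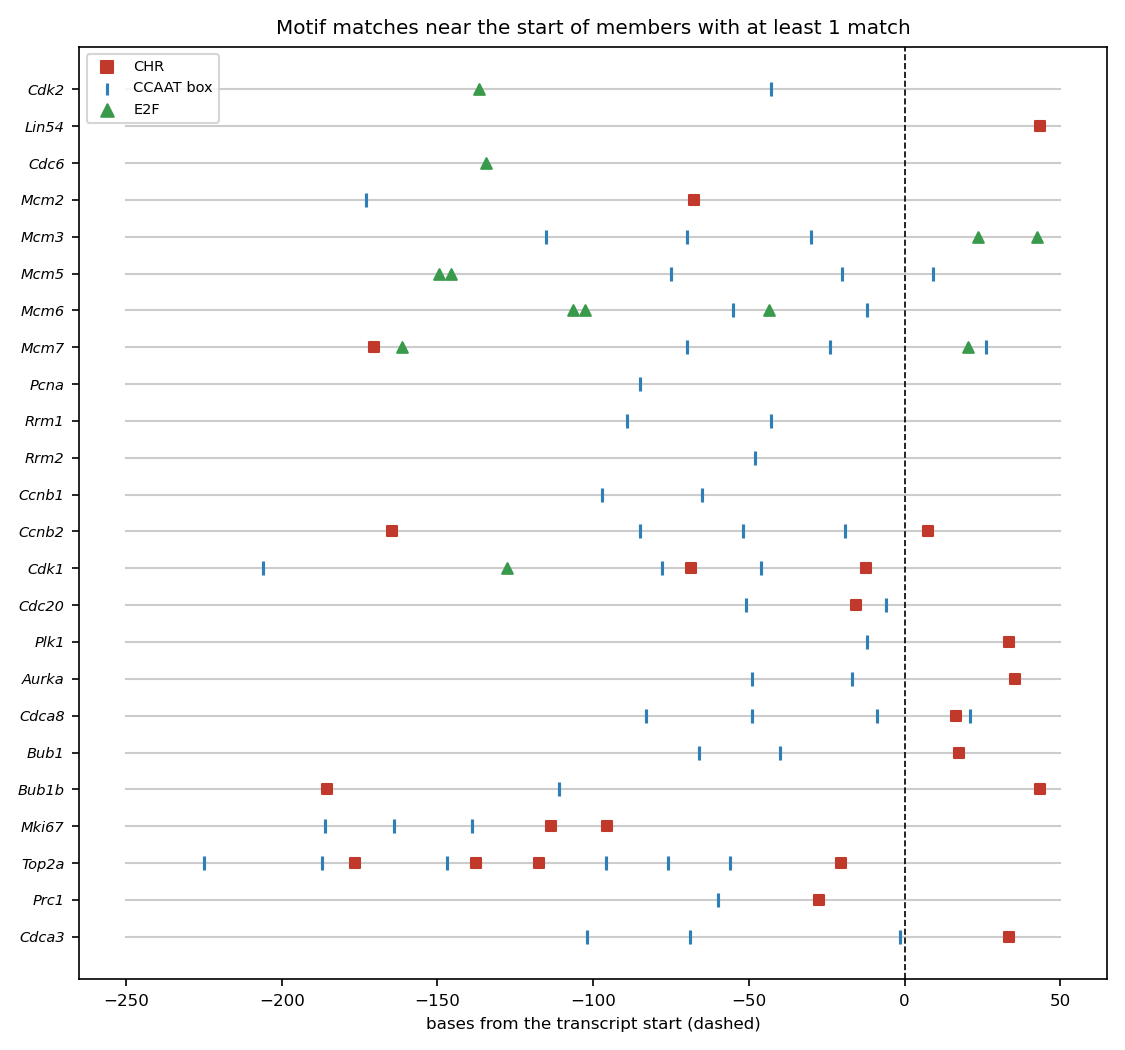
Places of motif matches for the 24 genes with at least 1 match, in bases from the transcript start (dashed line), from 250 before to 50 after it; for genes with several windows, the one with the highest coordinate is drawn. Squares are CHR letters, bars CCAAT boxes and triangles E2F sites. E2F sites are mostly in Mcm genes, and CHR letters mostly in genes of G2 and mitosis.

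The other genes of the cycle were taken from lists chosen by role, with earlier results of these data known. Of 24 inhibitors and arrest genes, 21 were tested, and in STZ liver 12 were called (57.1%, beside 15.5% of all genes). Of these 9 were higher and 3 lower, beside 7.71% and 7.78% of all genes. Cdkn1a, which encodes p21, rose from 154 ± 52.2 (SD, n = 5) to 677 ± 268, by 1.98 ± 0.28 log2 units (limma adjusted p = 1.10e-04). It was 681 ± 78.8 with 0.1% and 797 ± 354 with 0.5% phloridzin. Ccng1, a cyclin induced by p53, rose from 375 ± 55.6 to 1108 ± 267 (adjusted p = 9.88e-07). The arrays of these 2 genes did not overlap with the untreated ones in any injected group. Btg2, an antiproliferative factor, and Mdm2, the ligase that degrades p53, also rose in STZ liver, by 1.04 ± 0.14 (adjusted p = 7.67e-05) and 0.53 ± 0.16 log2 units (adjusted p = 0.0331). Mdm2 is counted in this list although it opposes p53. Plk2 rose by 1.29 ± 0.13 (limma adjusted p = 1.45e-06), and Wee1, the kinase that holds Cdk1 inactive, by 1.63 ± 0.27 (adjusted p = 5.69e-04). Plk3, Rbl2 and Cdkn2c were the others that rose. Ccng2, Zfp36l1 and Cdkn1b fell.

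**Figure D5:**
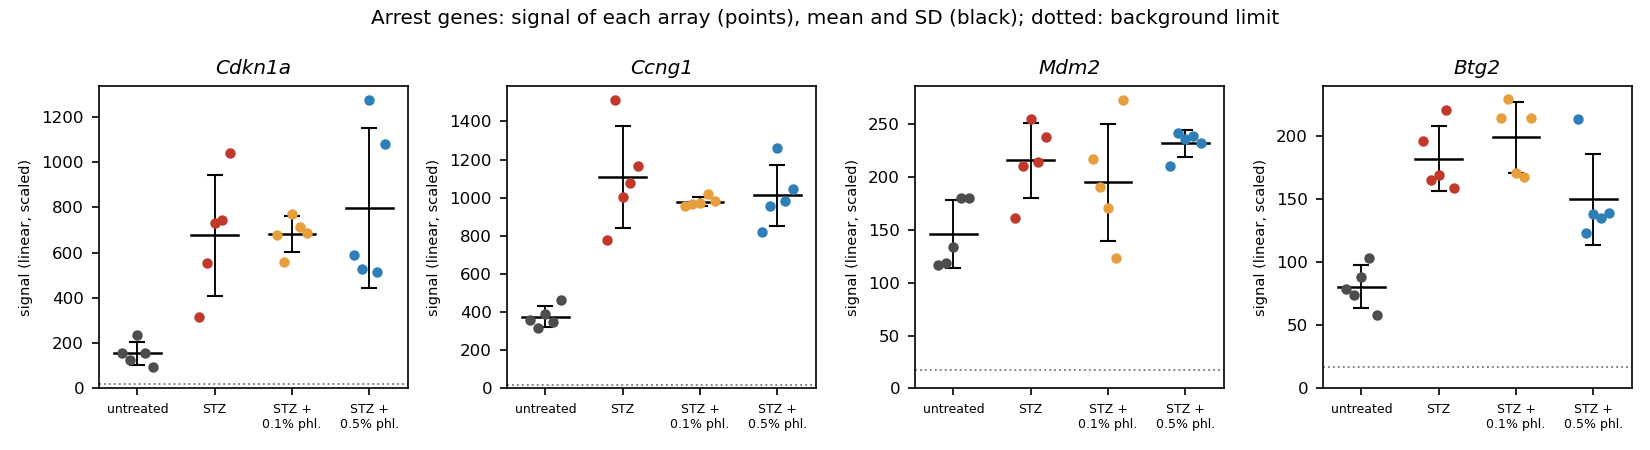
Linear signal of each array (points) for 4 genes from the list of inhibitors and arrest genes, with the group mean and SD (n = 5) and the background limit of 17.1 (dotted). Mdm2, in this list, degrades p53. All arrays of the 3 injected groups lie above the untreated ones in Cdkn1a, Ccng1 and Btg2; Mdm2 overlaps in the STZ and 0.1% phloridzin (phl.) groups.

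Of 23 tested genes among the other cyclins, kinases and DREAM or E2F factors, 6 were called in STZ liver (26.1%, beside 15.5% of all genes), 1 higher and 5 lower. Ccnf, a cyclin that forms a ubiquitin ligase, went from 101 ± 16.9 to 43.6 ± 16.4 (adjusted p = 0.00371), and Rbbp4, a histone-binding subunit of DREAM, from 1445 ± 231 to 981 ± 25.3 (adjusted p = 9.99e-04). E2f8, Skp2 and Lin9 were the other 3 that fell, and Ccnd3, the third D cyclin, rose. The STZ means of E2f8 (7.98) and Lin9 (10.5) were at background, and the untreated mean of Lin9 was 18.6. E2f8 was kept for testing through untreated liver, where its mean was 29.5. Its means with 0.1% and 0.5% phloridzin were 10.1 and 9.53. Of 31 other replication genes 3 were called (9.68%, beside 15.5% of all genes), Gmnn higher and Prim1 and Rpa3 lower. Of 24 other mitosis genes 0 were called by limma in STZ liver, with 3 at an unadjusted p under 0.05, beside 15.5% and 30.3% of all genes. With 0.5% phloridzin 1 was called, beside 14.4% of all genes: Stmn1, a regulator of microtubules, differed from untreated liver by 0.45 ± 0.14 log2 units (adjusted p = 0.0358). Of 16 growth signal genes 4 fell in STZ liver (25%, beside 7.78% of all genes that fell): Egfr, Mycn, Jun and Yap1. No gene of these lists was called against STZ or between the doses, as 0% of all genes were.

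Markers of other cells were measured on the same arrays. The summed signal of 5 measured B and plasma cell markers lay between 379 and 511 in untreated, 97.1 and 167 in STZ, 81.7 and 377 in 0.1% and 109.7 and 177 in 0.5% liver, with Cd79a, Cd79b and Ms4a1 at background. The 4 measured erythroid markers summed to between 1302 and 1484 in untreated and 241 and 1398 in STZ liver, with Hba-a1 and Slc4a1 at background. Most of this sum was Alas2, with a mean of 1327 in untreated liver. The markers above background went in opposite directions in STZ liver. Alas2 differed by -1.69 ± 0.51 log2 units (limma adjusted p = 0.0307) and Klf1 by 0.36 ± 0.11 (adjusted p = 0.0356). Of 8 stellate cell markers 3 fell in STZ liver (37.5%, beside 7.78% of all genes that fell): Col1a2, Col3a1 and Pdgfrb. Over the 8 markers, 3 differences lay above zero and 5 below, with a median of -0.08 log2 units. Their summed signal overlapped, between 2535 and 3633 in untreated and 2103 and 3004 in STZ liver. Of 8 Kupffer cell markers 1 rose (12.5%, beside 7.71% that rose). The part of these cells in the levels of the cell cycle genes was not tested.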

How the data were processed

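Per the labels' protocols, biotin-labelled cRNA from the liver RNA of each mouse was hybridised to 1 Affymetrix array. The deposited values are intensities, a linear signal per probe set that the authors had scaled to a trimmed mean of 100 (lowest and highest 2% dropped) on each array. No label or header names the software behind them. Of 45101 probe sets, 34945 were annotated to 1 gene and 932 to several, and only the former were used. For each gene the probe set with the highest mean over 20 arrays was taken as log2(signal + 16), and genes at or above the 40th percentile (a signal of about 11.2) were tested.

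Group means were fitted over all 20 arrays with limma 3.58.1 in R 4.3.3 (lmFit, eBayes, two-sided, Benjamini-Hochberg over 11951 genes, called at an adjusted p under 0.05). The fit was tested on simulated data. Arrays of a group came from different mice. The members and gene lists were chosen with earlier results of these data known. By the rule for named genes, each member called in any test is given array by array, filled up to 10 by the smallest F test p. Alternatives covered normalization, filter, pseudocount, probe sets, prior, array weights, samples in the fit, leaving out single arrays, and a replicate block. Deviations from the group means were correlated between arrays of different groups. With the same replicate number r lay between -0.43 and 0.53 (median 0.08, 13 of 30 pairs above 0.1). With unlike numbers it lay between -0.57 and 0.58 (median -0.01, 33 of 120 pairs above 0.1). Same-numbered arrays were not paired in the main fit, and whether they shared a factor was not tested. Figures used matplotlib 3.10.9.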

Additional observations from a re-analysis of the deposited data

Results flagged for a closer look

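In 40 groups of 5 arrays (10 genes in 4 groups), 1 array stood far from the others of its group by Dixon's test, where chance gives about 1 in 20. It was the Tk1 signal of untreated replicate 4, at 89.2, with the nearest other array at 61.1 and the lowest at 54.1. All injected arrays lay above it.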

How the results depend on the processing

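The number of cell cycle genes called lay between 4 and 7 for STZ against untreated, 4 and 6 for 0.1% and 5 and 9 for 0.5% phloridzin against untreated, and 6 and 10 for the F test, over the 11 alternatives that keep every array (10 for the F test). It was 0 in all of them against STZ and between the doses. With 1 array left out, the ranges were 4 to 6, 3 to 6, 4 to 8 and 5 to 9, and 0 to 0 for the other 3 comparisons. The replicate block gave 7, 5, 8 and 8 genes, and under it Ccne2 was called in STZ (adjusted p = 0.0272) and 0.5% liver (0.00924). Same-numbered arrays came from different mice. Among arrays of other groups, 9 of 20 arrays correlated best with an array of their own number. Ccnd1, Pcna and Tk1 in all 3 comparisons with untreated liver and Mcm7 in STZ liver kept their call in 31 of 31 alternatives, which leave out single other probe sets. Ccnb2 with 0.5% phloridzin did so in the 30 where it was tested. With another probe set the STZ call was lost for Ccnd1 (adjusted p = 0.0623) and Mcm7 (0.0684). No value with a call changed its sign. The count over all genes moved by over 1.5 times under array weights (2992 genes for STZ, 2744 for 0.5% phloridzin and 2936 by the F test). It also did so without untreated replicate 1 (1134 for 0.5%, 1100 by the F test), 2 (1109 by the F test) or 3 (1089), STZ replicate 5 (1231 for STZ), or replicate 1 (1006) or 5 (1031) of the 0.5% group. The median over the genes with 0.5% phloridzin against untreated liver was 0.12 log2 units, and -0.06 with a 60th percentile filter, which kept 15 of them; the cause was not tested. It was 0.07 with array weights, 0.05 without replicate 2 of the 0.5% group and 0.06 without untreated replicate 5. With 0.5% phloridzin against STZ the median of 0.17 was 0.11 with the 60th percentile filter. With 1 array left out, the median lay between -0.10 and 0.01 for STZ against untreated and between -0.05 and 0.03 for 0.1% phloridzin against STZ. Signals near background limit the mitotic genes.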
